A study of Mus musculus with 2 samples.

Results

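The widest NANOG-bound regions of mouse embryonic stem cells were 661 peaks of 1300 bp or more, out of 13341 peaks (4.95%) on assembled chromosomes in a list that the authors made for both replicates together on genome build mm9. They were chosen by width alone, the end minus the start of the deposited region, and the 12680 narrower peaks of the same list served as the reference. NANOG was precipitated from E14TG2a.4, an established line of male stem cells from strain 129/Ola embryos with a labelled age of 3.5 days, in 2 biological replicates of 1 group, each with 1 technical replicate. Both samples come from 1 line with no second condition, so no treatment or genotype was compared, and the control experiment that the labels name as possible was not used here. The labels do not say whether the replicates were separate cultures. Replicate 1 had its own list of 22082 peaks and replicate 2 its own list of 6618. The read depth behind each list is unknown here, so intervals given below cover counting error over peaks only.

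NANOG is a homeodomain transcription factor that helps to hold embryonic stem cells in the naive state together with OCT4 (encoded by Pou5f1), SOX2 and ESRRB. These factors often bind within a few nucleosomes of each other at enhancers, and genes of the pluripotency network are known for several such elements in a row. A peak caller reports a bound region as an interval, and closely spaced sites can fall within 1 interval. The width of an interval also depends on the fragment length, the depth and the caller's settings.

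Sequences around replicate 2 midpoints inside 6 wide peaks are shown first, because the replicate 2 list divides some of these regions into separate peaks. It does so in 4 of the 6, while Eno4 and Tulp4 hold 1 replicate 2 peak. Outside Pou5f1, every stretch shown holds a match. The other midpoint of Jmjd1c and the last midpoint of Vmn2r90 are not shown. The stretches therefore do not tell how often a midpoint has a match nearby. All were read from the + strand of mm9 (NCBIM37), none overlaps an exon of a protein-coding gene, and capitals mark exact matches to any of 10 short motifs searched on both strands. The 2 midpoints in the wide peak upstream of Pou5f1 lie in chr17:35640976-35641096 and chr17:35641997-35642117, shown over 121 bases, and neither stretch holds a match. Both reach only 60 bp to each side of the midpoint, while matches up to 163 bp away are marked in other wide peaks. The Pou5f1 peak holds a KLF site (chr17:35640925-35640932), a GC box and a NANOG core, all outside these stretches. The lack of a match at Pou5f1 is therefore not comparable with the other stretches. The wide peak over the start of Phc1, a polycomb gene, gives chr6:122290652-122290729 with 2 SOX sites, of which 1 lies 3 bp from the replicate 2 midpoint, and chr6:122291153-122291452 with an OCT octamer, a KLF site and a TCF site. The one in an intron of Jmjd1c, a histone demethylase family gene, gives chr10:66563125-66563184 with a NANOG core 41 bp from the midpoint. That midpoint lies just outside the stretch. The one 35.5 kb from Vmn2r90, a vomeronasal receptor gene, gives chr17:17875608-17875907 with an OCT octamer and an ESRRB site. It also gives chr17:17876285-17876373 with 2 NANOG cores, 163 and 120 bp from the midpoint of a weak replicate 2 peak (q-value of 0.077). This midpoint also lies outside the stretch. The one in Eno4 gives chr19:59043753-59043875, where a SOX site and a NANOG core lie 38 and 49 bp from the midpoint beside a GC box. The one in Tulp4 gives chr17:6223331-6223553 with a SOX site, a TCF site and an ESRRB site.
Pou5f1 first midpoint: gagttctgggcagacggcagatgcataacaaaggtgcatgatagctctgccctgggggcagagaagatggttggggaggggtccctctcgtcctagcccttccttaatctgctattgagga
Pou5f1 second midpoint: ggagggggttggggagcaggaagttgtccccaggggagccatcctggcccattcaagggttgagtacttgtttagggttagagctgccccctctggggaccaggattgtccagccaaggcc
Phc1 first midpoint: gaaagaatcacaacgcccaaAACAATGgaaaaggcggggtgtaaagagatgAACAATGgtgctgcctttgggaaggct
Phc1 second midpoint: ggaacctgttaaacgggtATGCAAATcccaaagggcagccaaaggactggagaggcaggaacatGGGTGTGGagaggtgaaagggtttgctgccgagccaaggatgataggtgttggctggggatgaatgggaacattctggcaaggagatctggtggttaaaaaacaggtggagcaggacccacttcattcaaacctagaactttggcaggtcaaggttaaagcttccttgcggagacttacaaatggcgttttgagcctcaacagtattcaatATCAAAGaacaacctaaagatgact
Jmjd1c first midpoint: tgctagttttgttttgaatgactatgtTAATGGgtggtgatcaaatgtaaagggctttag
Vmn2r90 first midpoint: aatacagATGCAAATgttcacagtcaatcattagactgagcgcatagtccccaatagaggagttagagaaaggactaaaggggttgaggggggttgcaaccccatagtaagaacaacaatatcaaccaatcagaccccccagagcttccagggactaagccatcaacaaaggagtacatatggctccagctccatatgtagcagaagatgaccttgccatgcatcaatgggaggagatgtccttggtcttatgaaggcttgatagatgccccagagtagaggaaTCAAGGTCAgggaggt
Vmn2r90 second midpoint: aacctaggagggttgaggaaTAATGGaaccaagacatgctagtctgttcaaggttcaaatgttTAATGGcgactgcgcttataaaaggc
Eno4 midpoint: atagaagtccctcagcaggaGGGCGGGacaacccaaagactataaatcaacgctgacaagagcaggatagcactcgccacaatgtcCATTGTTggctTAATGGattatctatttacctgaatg
Tulp4 midpoint: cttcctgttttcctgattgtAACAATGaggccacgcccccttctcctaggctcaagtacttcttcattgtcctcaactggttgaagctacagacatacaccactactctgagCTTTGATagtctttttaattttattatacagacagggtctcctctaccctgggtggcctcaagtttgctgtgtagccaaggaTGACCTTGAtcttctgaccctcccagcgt

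Wide peaks had a median width of 1471 bp (quartiles 1375 and 1628), while narrower peaks had a median of 844 bp (quartiles 770 and 943). The threshold cut a continuous range. The 5 members just inside it were nearest to Dram1, Adora2b, Dgkb and Spin1 at 1300 bp and Rcor2 at 1301 bp, with enrichments of 31.6, 51.7, 7.55, 6.04 and 46.2. The 5 peaks just outside it were nearest to Sgms1 and Lekr1 at 1298 bp and Gm17323, Cd59a and Ppapdc1a at 1297 bp, with enrichments of 17.0, 24.7, 12.1, 13.6 and 12.3. The enrichment is the authors' ratio per peak, and what it is relative to is not stated. Width and enrichment come from the same reads, so the values are given with no test. The median enrichment was 12.5 in wide peaks (quartiles 7.32 and 19.8), against 7.38 in narrower peaks (quartiles 5.54 and 10.9). An enrichment of 20 or more was found in 158 wide peaks (23.9%) and in 913 narrower peaks (7.2%).

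The step in enrichment lay below the threshold. Across width classes, the median enrichment was 5.2 below 700 bp, 6.54 from 700 bp, 11.4 from 900 bp, 13.4 from 1100 bp, 11.4 from 1300 bp, 13.5 from 1500 bp and 13.2 from 2000 bp. Over all peaks, width and enrichment had a Spearman's rho of 0.572, and over the 661 wide peaks it was 0.0668, given as a description over peaks of 1 list. The wide peaks were therefore not all strong sites, since 49 of them (7.41%) had an enrichment below 5. Such low values were rarer than in narrower peaks, of which 1992 (15.7%) were below 5. Repeated sequence, defined below, was in 22 of the 49, and the other 27 were among the 590 wide peaks without it.

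**Figure D1:**
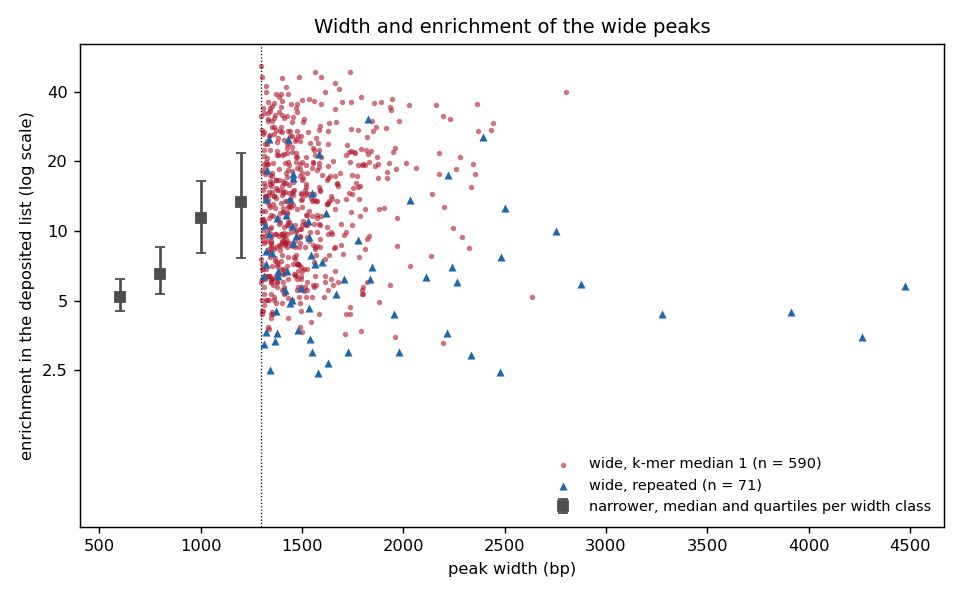
Enrichment in the deposited list (log scale) against width in bp; each red point or blue triangle is 1 wide peak, and dark squares with bars are the median and quartiles of the narrower width classes. The 71 wide peaks with repeated sequence (triangles) include the 5 widest, all with enrichments below 6, while the other 590 reach 51.7.

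The 10 wide peaks with the highest enrichment lay from 4.09 to 141 kb from the nearest protein-coding start. The top one, at 51.7, lay in an intron of Specc1, 33.8 kb upstream of Adora2b, an adenosine receptor gene, with enrichments of 104 in the replicate 1 list and 74.5 in the replicate 2 list. The next, at 48.5, lay 11.4 kb downstream of the start of 4931440L10Rik and 24.7 kb upstream of the histone demethylase gene Kdm5b, and had 98.9 in replicate 1 and 82.2 in replicate 2. Another at 48.5 lay 19.9 kb upstream of Foxd3, a forkhead factor of early embryonic cells, with 97.6 in replicate 1 and 49.2 in replicate 2. The member 5.67 kb upstream of Rcor2, a CoREST family corepressor gene, had 46.2, with 93.7 in replicate 1 and 62.1 in replicate 2. The member 46.1 kb upstream of Klf9, a Kruppel-like factor gene, had 42.1, with 85.2 in replicate 1 and 73.6 in replicate 2. The rest of the highest 10 lay nearest to Abcc12, Pccb, Cdyl, D630039A03Rik and Samd7, with enrichments from 42.2 to 46.5.

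Wide series-level peaks were also wide in replicate 1. A replicate 1 midpoint lay inside 654 wide peaks (98.9%; exact Clopper-Pearson 95% interval 97.8 to 99.6, as for all shares below), and in 12572 narrower peaks (99.1%; 99.0 to 99.3). A replicate 1 peak of at least 1300 bp overlapped 589 wide peaks (89.1%) and 621 narrower peaks (4.9%). The replicate 1 list has 1236 such peaks, and 47.7% of them overlapped a wide series-level peak. Replicate 2 had only 16 peaks of 1300 bp or more, and all 16 overlapped a wide peak. The widest overlapping replicate 2 peak had a median width of 676 bp in wide peaks and 563 bp in narrower peaks. This measure favours peaks that overlap several. The series-level enrichment was close to a fixed fraction of the replicate 1 value, with a median ratio of 0.51 (quartiles 0.5 and 0.528) over 654 wide peaks. Against replicate 2 the median ratio was 1.2 (quartiles 1.01 and 1.45) over 504 wide peaks. The lists share reads, so these overlaps describe how the lists relate and test nothing.

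The replicate 2 list split a minority of wide peaks. At least 1 replicate 2 midpoint lay inside 504 wide peaks (76.2%; 72.8 to 79.4) and 5747 narrower peaks (45.3%; 44.5 to 46.2), and the share was 74.6% already from 900 to below 1100 bp. At least 2 lay inside 62 wide peaks (9.38%; 7.27 to 11.9) and 2 narrower peaks (0.0158%; 0.00191 to 0.057), which a longer interval favours by its length alone. With replicate 2 peaks restricted to a q-value of at most 0.05, 38 wide peaks held at least 2. The share with 2 or more was 2.37% from 1300 to below 1500 bp, 17.2% from 1500 to below 2000 bp and 27.3% from 2000 bp. Neighbouring replicate 2 midpoints in the 62 members lay a median of 776 bp apart (quartiles 655 and 916; range 521 to 1288), with gaps of 5 to 662 bp between the peaks. Replicate 1, by contrast, had 2 midpoints inside only 22 wide peaks (3.33%), among them those nearest to Dtwd1, Frem2, Sorcs1, Olfr19 and Eno4, and inside 3 narrower peaks (0.0237%).

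**Figure D2:**
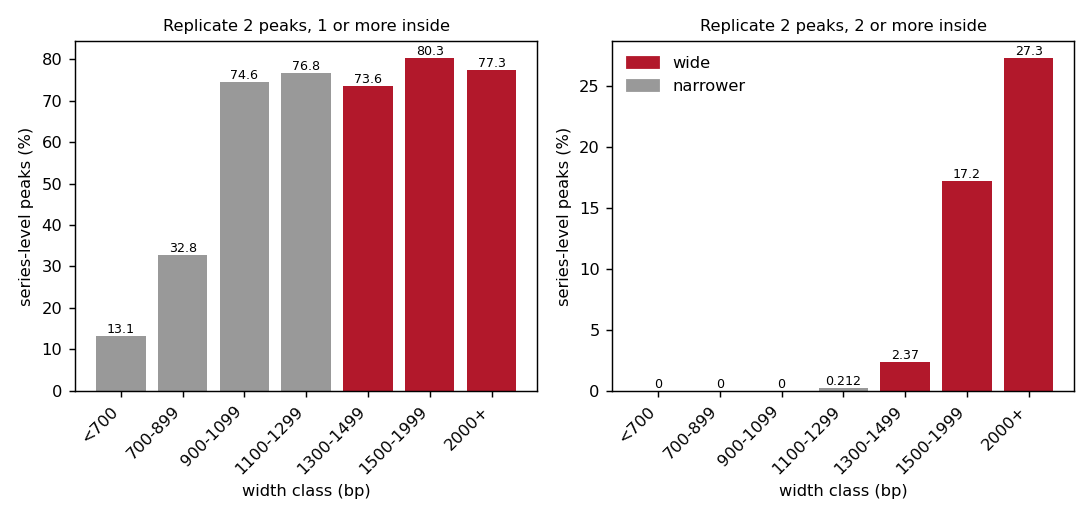
Share of series-level peaks (%) that hold 1 or more (left) and 2 or more (right) replicate 2 midpoints, by width class in bp; red bars are wide and grey bars narrower classes. The share with 1 or more is level from 900 bp on, at 73.6 to 80.3%, and the share with 2 or more is 2.37, 17.2 and 27.3% in the 3 wide classes, against at most 0.212% in the narrower ones.

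The 62 divided members had a median width of 1728 bp and a median enrichment of 18.2 (quartiles 12.4 and 27.8). The 442 members with 1 replicate 2 peak had 1454 bp and 14.9 (quartiles 10.3 and 22.0). The 157 members with none had 1449 bp and 6.04 (quartiles 4.87 and 7.22), and no enrichment above 15.6. Among wide peaks, those absent from the shorter replicate 2 list thus had low enrichment, with widths like those of members with 1 replicate 2 peak. Repeated sequence, defined below, was in 30 of the 157 (19.1%), against 8.82% of members with 1 and 3.23% of members with 2 or 3; its part was not tested. Within divided members the highest replicate 2 enrichment was a median of 1.69 times the lowest (range 1.02 to 8.23).

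The wide peak of Pou5f1 shows such a division at the gene for OCT4. It spans 2029 bp with its midpoint 1.39 kb upstream of the nearest Pou5f1 start, and had an enrichment of 35.1. Replicate 1 had 1 peak of 2579 bp there, with an enrichment of 69.6. Replicate 2 had 2 peaks, 690 bp wide with an enrichment of 26.3 at 1.95 kb upstream and 806 bp wide with 40.6 at 0.925 kb upstream. A distal and a proximal enhancer upstream of this gene are known in mouse embryonic stem cells; the intervals were not compared with their borders.

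The same layout was seen at other genes. The member 6.84 kb upstream of Dnmt3b, a de novo DNA methyltransferase gene, spans 2176 bp and held replicate 2 peaks of 7.84 and 19.1. The member 13.3 kb upstream of Lifr, the receptor gene for leukaemia inhibitory factor, spans 2354 bp and held 15.9 and 8.84. The member over the start of Phc1, a subunit gene of polycomb repressive complex PRC1, spans 1783 bp and held 10.5 and 7.64. Only the members nearest to Pla2g10 and Vmn2r90 held 3. Pla2g10, a secreted phospholipase gene, lay 18.3 kb away from a member of 2803 bp, the widest of those with a k-mer median of 1, and its replicate 2 enrichments were 5.25, 43.2 and 12.4 against a single value of 80.8 in replicate 1. The Vmn2r90 member of 2362 bp had 28.2, 7.64 and 20.1 in replicate 2. The lowest of the 3 had a q-value of 0.2636 at Pla2g10 and 0.077 at Vmn2r90, so each held 2 at a q-value of at most 0.05.

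**Figure D3:**
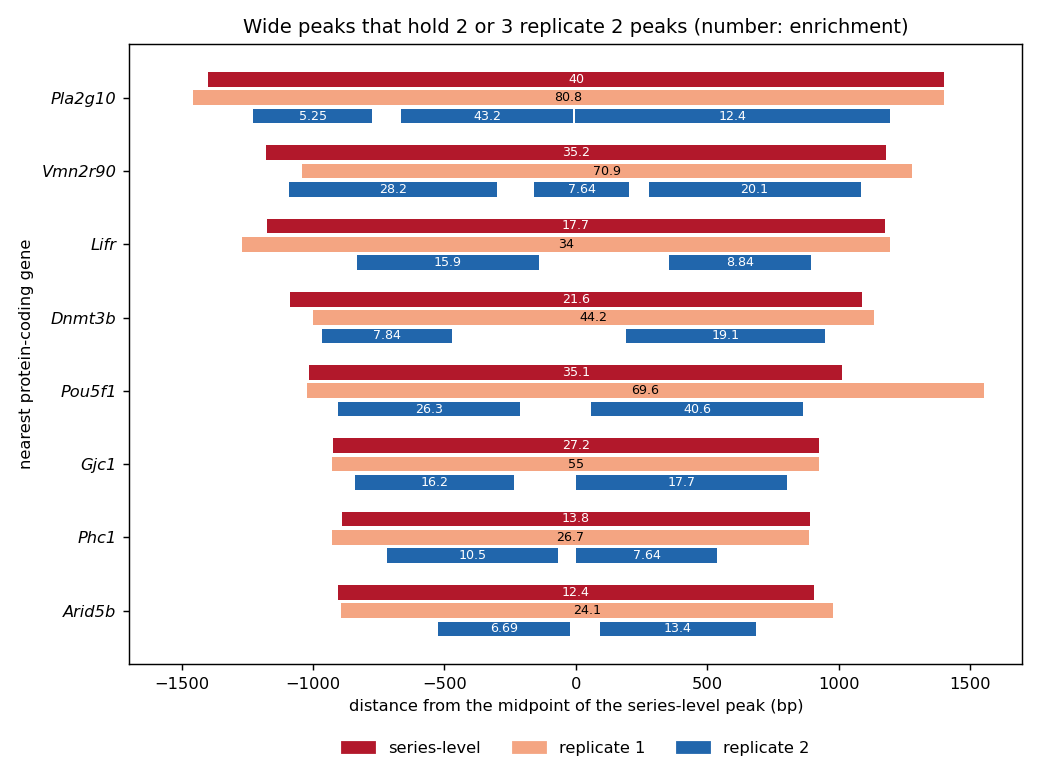
Intervals of the series-level list (red), the replicate 1 list (orange) and the replicate 2 list (blue) at 8 wide peaks, as distance in bp from the series-level midpoint, with the enrichment of each interval written in it. At each of the 8, replicate 1 has 1 interval and replicate 2 has 2 or 3, as at Pou5f1 with 26.3 and 40.6.

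Of the wide peaks, 7 had no replicate 1 midpoint inside, and 6 had none from either list. The highest of these, with an enrichment of 10.3, covers 2246 bp at the start of Abcg2, a transporter gene. The others were nearest to Grm4, Pdia5, D830030K20Rik, Hrh1, Zfp600 and Sytl3, with enrichments from 2.44 to 3.69. The Hrh1 member held 1 replicate 2 midpoint.

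No location class passed the adjusted test between wide and narrower peaks, and the intergenic share came closest. By midpoint, protein-coding transcription starts lay no more than 1 kb from 30 wide peaks (4.54%; 3.08 to 6.42), and from 4.75% of narrower peaks, an odds ratio of 0.954 (95% interval 0.632 to 1.39). Exons held 9 (1.36%, against 1.88%) and introns 223 (33.7%, against 37.4%). The intergenic share was 60.4% (399 wide peaks; 56.5 to 64.1) and 55.9% in narrower peaks, an odds ratio of 1.20 (1.02 to 1.41). None passed two-sided Fisher's exact tests with Benjamini-Hochberg adjustment over the 4 classes, with adjusted p of 0.925 for promoters, 0.610 for exons, 0.115 for introns and 0.108 for intergenic sequence, and unadjusted p of 0.027 for the last. By the same exact test, the intergenic difference passed at a minimum width of 1200 bp (odds ratio 1.20, adjusted p = 0.0249). It also passed without repeated peaks (1.24, adjusted p = 0.0491 by the exact test). It did not pass at 1500 bp (1.14), within strata of enrichment (1.18), or with starts within 500 bp (1.19) or 2 kb (1.14). The odds ratio was 1.19 in replicate 1 alone and 1.27 in replicate 2 alone, which has 16 wide peaks. The replicate lists share reads with the series-level list, so they are not independent of it.

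The distance to the nearest start had a median of 23.8 kb in wide peaks (quartiles 8.82 and 73.2) and 28.4 kb in narrower peaks (quartiles 8.44 and 90.8). The next peak lay a median of 25.2 kb away from a wide peak and 38.4 kb away from a narrower one. The GC content was alike, with medians of 45.1% over wide peaks and 44.6% over narrower peaks. CpG dinucleotides were depleted in both, with a median observed over expected ratio of 0.195 in wide peaks and 0.186 in narrower peaks.

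A protein-coding start lay inside 24 wide peaks (3.63%; 2.34 to 5.35) and 303 narrower peaks (2.39%; 2.13 to 2.67), a count that width itself raises. The highest enrichments among these members were at Gjc1, a gap junction gene, with 27.2, Tead1, the partner of YAP, with 25.3, Rbpj, the DNA-binding factor of Notch signalling, with 19.5, and Ntn1, which encodes netrin-1, with 19.1. Runx1t1 had 15.1, Phc1 13.8 and Arid5b 12.4. The members over Gjc1, Runx1t1, Phc1 and Arid5b each held 2 replicate 2 peaks, and with a q-value of at most 0.05 those over Gjc1 and Phc1 held 2 and those over Runx1t1 and Arid5b held 1.

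Some genes of the pluripotency network had a wide peak nearby. In a list of 29 measured core and naive pluripotency genes, 22 had any peak within 10 kb of a start and 7 (24.1%) had a wide one, beside 0.904% of all 22225 protein-coding genes (201). Of the genes with any peak within 10 kb, 31.8% of this list and 5.71% of all protein-coding genes had a wide peak. The lists were put together with earlier results of these data known, so these counts are a description with no test. Besides Pou5f1, the 7 were Esrrb, Dppa5a, Rif1, Tdgf1, Utf1 and Mycn. The member in an intron of Esrrb, an orphan nuclear receptor gene of the naive network, lay 2.46 kb upstream of the nearest annotated start and had 34.1, with 68.3 in replicate 1 and 37.2 in replicate 2. Dppa5a, an embryonic stem cell marker, had 2 wide peaks upstream, at 6.93 kb with 29.9 (replicate 1: 60.5; replicate 2: 37.2) and at 1.04 kb with 4.53 (replicate 1: 8.13; none in replicate 2). Rif1, a regulator of replication timing, had 19.5 in its promoter, Tdgf1, which encodes the Nodal co-receptor Cripto, had 14.6 at 1.60 kb upstream, and Utf1 had 13.4.

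Signalling and chromatin genes followed with fewer members. Of 17 measured primed and formative epiblast genes, 3 had a wide peak, namely Zic2 and Zic5, which share 1 of 1559 bp with an enrichment of 14.4, and Dnmt3b with 21.65. Of 16 DNA methylation and TET genes, 2 had one, Dnmt3b and Tet1, a 5-methylcytosine oxidase gene, with 18.6. Of 26 polycomb genes, 2 had one, Mtf2, a PRC2 accessory subunit gene, with 21.9 over 1947 bp, and Phc1. Of 15 histone demethylase genes, 2 had one, Jmjd1c with 25.2 and Kdm3b with 8.91. Of 28 BMP and Nodal genes, 2 had one, the ligand gene Nodal with 12.1 at 2.07 kb upstream, and its co-receptor Tdgf1. A single gene was found in each of 4 other lists, beside the 0.904% of all protein-coding genes. It was 1 of 20 FGF genes, Spred1, an inhibitor of Ras signalling, with 24.5, and 1 of 14 LIF genes, Socs3, a feedback inhibitor of STAT3 signalling, with 13.9. It was 1 of 24 WNT genes, the receptor gene Fzd5, with 5.03, and 1 of 17 neuroectoderm genes, Pax6, a homeodomain factor of eye and brain, with 14.1. Any peak lay within 10 kb of 14.3% (LIF) to 64.7% (primed and formative) of the genes in these lists, beside 15.8% of all genes. Of genes with any peak, 8.33% of the FGF and 10% of the WNT list had a wide one, beside 5.71% of all protein-coding genes. The other lists of this paragraph had 14.3% (neuroectoderm) to 50% (LIF, 1 of 2 genes).

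No wide peak lay within 10 kb of the 16 primitive endoderm, 14 trophectoderm, 20 mesoderm and streak, 24 cytosolic ribosomal protein or 23 blood, liver and muscle genes. At the 0.904% of all protein-coding genes, lists of these sizes hold few or no such genes, so nothing is read from the zeros. Over all 15 lists, 20 different genes had a wide peak within 10 kb, 3 within 1 kb and 32 within 50 kb. Those within 50 kb include Foxd3, Klf5, Lifr, Il6st, Kdm5b and Aebp2. The 661 members had 619 different nearest genes. Arid5b, Rybp, Tgif1 and Zfp600 were each nearest to 3 members. Those nearest to Rybp, a PRC1 subunit gene, were 1574, 1467 and 2289 bp wide, out of 16 peaks nearest to it.

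**Figure D4:**
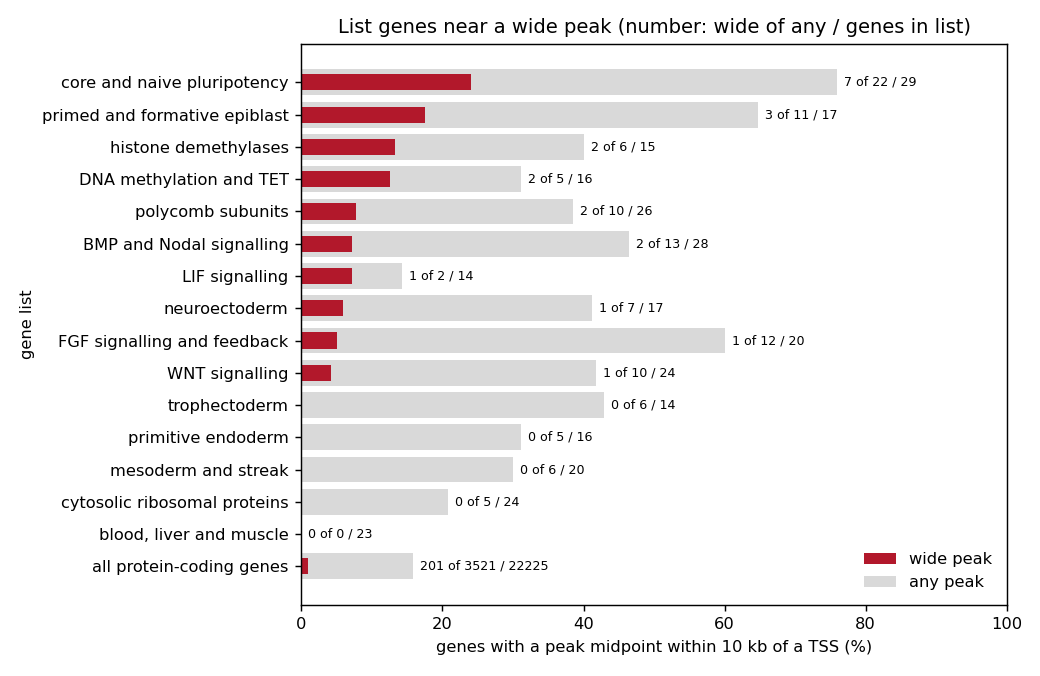
Share of the measured genes of each list (%) with a wide peak (red) and with any peak (grey) within 10 kb of a transcription start; the numbers give genes with a wide peak of those with any peak, and the genes in the list. Core and naive pluripotency genes have 7 of 22, and all protein-coding genes in the bottom row have 201 of 3521.

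Motifs were compared in windows of 200 bp to each side of the midpoint, so that wide and narrower peaks were searched over the same length. Such a window covers a smaller part of a wide peak (median width 1471 bp) than of a narrower one (844 bp). The shares therefore describe the middle of each interval and not the whole peak, and the width rule itself can bear on them. The letters were TAATGG (NANOG core), ATGCAAAT (OCT octamer), AACAATG (SOX site), TCAAGGTCA (ESRRB site), GGGTGTGG (KLF site), CTTTGAT (TCF site), TTCCNGGAA (STAT site), CCGGAAG (ETS site), GGGCGGG (GC box) and GCATGCGC (NRF1 core), on both strands with exact matches. Spellings that differ by 1 base are not counted. The NANOG core was in 89 wide peaks (13.5%; 11.0 to 16.3) and in 2585 narrower peaks (20.4%; 19.7 to 21.1), an odds ratio of 0.608 (0.478 to 0.764; Fisher's exact test, two-sided, adjusted p = 6.92e-05 over the 10 motifs). It was the only motif of the 10 that passed. In the replicate 1 list alone it passed, with 178 of 1236 wide and 4161 of 20846 narrower peaks (odds ratio 0.675, adjusted p = 9.11e-06 by the exact test). The OCT octamer passed there too, with 52 of 1236 wide and 1389 of 20846 narrower peaks (odds ratio 0.615, adjusted p = 0.00226 by the exact test), and at a minimum width of 1200 bp (0.661, 0.0372). The replicate 2 list alone has 16 wide peaks, of which 2 held the NANOG core, an odds ratio of 0.531. The OCT octamer was also in 2 of these 16, with an odds ratio of 1.99, in the opposite direction. The SOX site was in 11.0% of wide and 14.3% of narrower peaks (Fisher's exact test, adjusted p = 0.0939), the OCT octamer in 4.69% and 6.51% (0.242) and the ESRRB site in 3.78% and 4.55% (0.554). The KLF site was in 4.08% and 5.07%, the TCF site in 8.93% and 9.23%, the STAT site in 2.27% and 1.81%, the ETS site in 2.57% and 2.62%, the GC box in 3.93% and 3.80% and the NRF1 core in 0.151% and 0.505% of wide and narrower peaks, with adjusted p from 0.554 to 1.

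The lower share of the NANOG core applied to windows at the midpoint, while its densities over whole peaks were alike. No test compared the middle of wide peaks with their flanks. Over whole peaks, NANOG cores numbered 0.499 per kb in wide and 0.497 per kb in narrower peaks, and SOX sites 0.287 and 0.283 per kb. Within 100 bp of the midpoint, NANOG cores numbered 0.545 and 0.393 per kb on its 2 sides in wide peaks, against 0.659 and 0.67 per kb in narrower peaks, which were densest there. From 300 to 400 bp away, the densities on the lower- and higher-coordinate sides were 0.681 and 0.499 per kb in wide peaks and 0.4 per kb on both sides in narrower peaks. From 400 to 500 bp away they were 0.454 and 0.53 per kb in wide peaks and 0.391 and 0.426 per kb in narrower peaks. The 16 wide bins rest on 19 to 45 sites each and range from 0.287 to 0.681 per kb. The replicate 2 midpoint lay a median of 184 bp (quartiles 71.2 and 285) from the series-level midpoint in the 442 wide peaks with 1, against 36 bp (quartiles 16 and 63) in 5745 narrower peaks. With 400 bp to each side, the NANOG core was in 29.2% of wide and 32.5% of narrower peaks, an odds ratio of 0.857 with an adjusted p of 0.268. A window of that size reaches past the ends of many narrower peaks.

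Centred on the replicate 2 peak with the highest enrichment inside, an anchor chosen after seeing the data, the comparison gave another picture. In these windows of 200 bp to each side, the NANOG core was in 96 of 504 wide peaks (19.0%; 15.7 to 22.8) and 1237 of 5747 narrower peaks (21.5%; 20.5 to 22.6), an odds ratio of 0.858 (0.674 to 1.08; Fisher's exact test, adjusted p = 0.579). The SOX site was in 15.1% of wide and 14.9% of narrower peaks. The ESRRB site was in 37 wide peaks (7.34%; 5.22 to 9.98) and 217 narrower peaks (3.78%; 3.30 to 4.30), an odds ratio of 2.02 (1.37 to 2.91; Fisher's exact test, adjusted p = 0.00352). It was 2.08 within 10 strata of enrichment (Mantel-Haenszel test, adjusted p = 0.0013) and 2.10 without repeated peaks (Fisher's exact test, adjusted p = 0.00227). The direction was the opposite around series-level midpoints, with an odds ratio of 0.825 that did not pass.

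**Figure D5:**
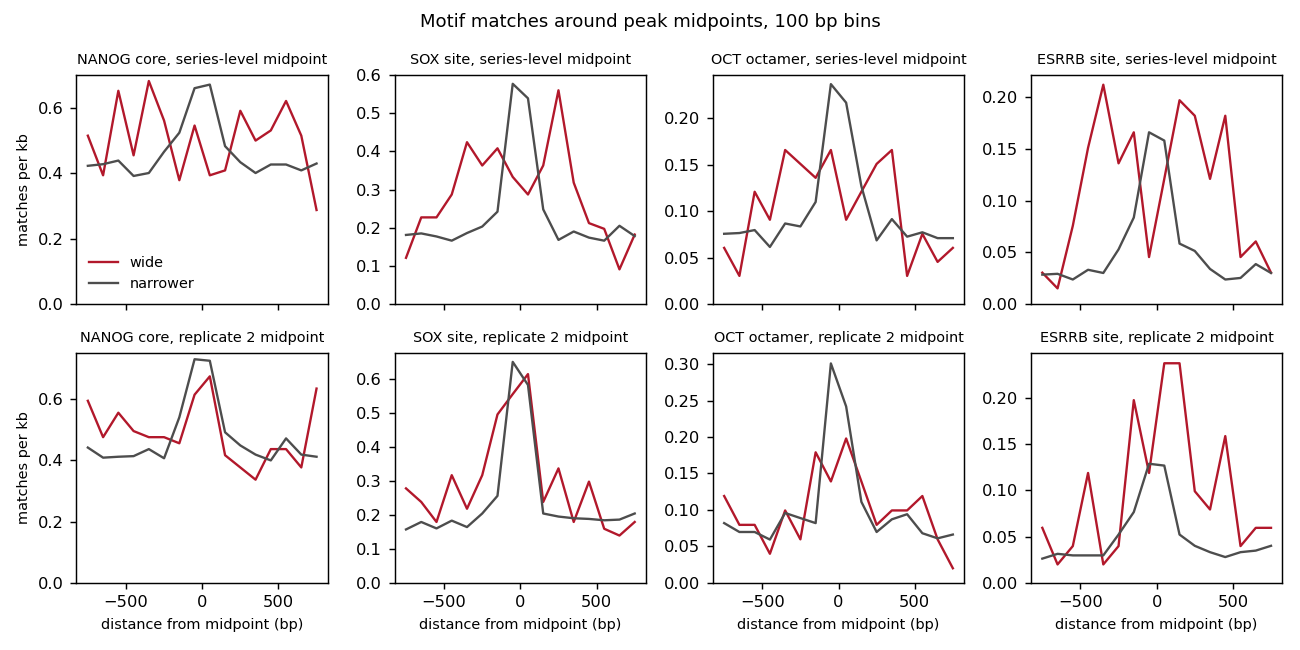
Matches per kb in 100 bp bins by distance in bp from the series-level midpoint (top; 661 wide in red, 12680 narrower in grey) and from the midpoint of the replicate 2 peak with the highest enrichment inside (bottom; 504 wide, 5747 narrower). Around series-level midpoints the central maximum of the narrower peaks is lacking in the wide ones, such as 0.333 SOX sites per kb in wide against 0.577 in narrower peaks just below the midpoint, and around replicate 2 midpoints the SOX lines of both groups peak at the centre.

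ESRRB sites, the binding motif of an orphan nuclear receptor that acts with NANOG in naive cells, were also denser over whole wide peaks, at 0.112 per kb against 0.075 per kb in narrower peaks. At least 2 were in 17 wide peaks (2.57%; 1.51 to 4.09) and 21 narrower peaks (0.166%; 0.103 to 0.253), a count that length also raises. Genes nearest to these 17 include Esrrb itself, with 2 sites 342 bp apart, Mycn with 3, Gli2, the transcription factor gene of Hedgehog signalling, with 2 sites 949 bp apart, and Aebp2, a PRC2 subunit gene, with 2 sites 43 bp apart; they were picked after their values were seen. The member 10.4 kb upstream of Gm17247 held 9 within 489 bp, had a low enrichment of 5.2 and no replicate 2 peak. Without it the wide peaks had 0.104 sites per kb. Of the 17, 13 held a replicate 2 midpoint and 0 had repeated sequence.

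Repeated sequence was more frequent among wide peaks and set the extreme end of the width range. Each peak's stretches of 31 bases were counted over the assembled mm9 chromosomes, and a peak whose median stretch occurred more than once was called repeated. This held for 71 wide peaks (10.7%; 8.48 to 13.4) and 655 narrower peaks (5.17%; 4.79 to 5.57). By width class the share was 8.44% from 1300 bp, 9.24% from 1500 bp and 38.6% from 2000 bp. The widest peak, of 4476 bp, lay on chromosome 4 nearest to Gm13138, with an enrichment of 5.79 and a median of 5 occurrences. Next came peaks at Gm13225 (4265 bp, 3.49), Gm13051 (3915 bp, 4.46) and Gm13145 (3274 bp, 4.37) on the same chromosome and at Gm3739 (2878 bp, 5.92) on chromosome 14, whose stretches had a median of 47 occurrences.

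Repeated wide peaks differed from the others in their measured values. Their median enrichment was 6.71 (n = 71), against 13.4 in the other wide peaks (n = 590), and a replicate 2 midpoint lay inside 57.7% of them, against 78.5%. The directions were the same in narrower peaks. The 655 repeated ones had a median enrichment of 6.51, beside 7.38 in all narrower peaks. A replicate 2 midpoint lay inside 36% of these 655, against 45.8% of the other narrower peaks. A gene whose symbol begins with Gm, a predicted gene, was nearest to 25 of the 71 (35.2%) and to 29 of the 590 (4.92%), beside 6.84% of narrower peaks. A Zfp gene, which encodes a zinc finger protein, was nearest to 7 (9.86%) and to 13 (2.2%), beside 1.62% of narrower peaks. Many repeated wide peaks lay close together. A stretch of 1995 kb on chromosome 4 held 13 wide peaks, of which 11 were repeated, near Zfp534, Zfp600 and several Gm genes. Another of 699 kb on chromosome 17 held 8, all repeated, near Tulp4, Dynlt1b, Tmem181a and Sytl3, and 1 of 903 kb on chromosome 14 held 6, all repeated, near Gm genes. The sources used here do not give how reads from repeated sequence were placed; the part of repeats in the widths was not tested.

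The X chromosome had few wide peaks. They were 3 of its 315 peaks (0.952%; 0.197 to 2.76), nearest to Xpnpep2, Obp1b and Dmd, against 658 of 13025 autosomal peaks (5.05%; 4.68 to 5.44). The median enrichment of all peaks was 7.89 on X and 7.38 on autosomes. At enrichments from 10 to below 20, wide peaks were 1.35% of X peaks (0.0342 to 7.30) and 7.66% of autosomal peaks (6.74 to 8.66). The line is labelled male and so carries 1 X chromosome; the part of copy number in the widths was not tested. On single autosomes the share was 3.63 to 6.80%.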

How the data were processed

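Both replicates and the series had deposited mm9 peak lists. Per the labels, the deposited lists give for each peak an enrichment ratio, a −log10 p-value and a q-value made by the authors; peak caller, versions and thresholds, and how the replicates were combined, are not given in the sources used here. Wide peaks, the gene lists, motifs and tests were chosen with earlier results of these data known. Peaks were kept on assembled chromosomes and coordinates are 1-based. Locations used GENCODE M1 on mm9 (NCBIM37), whose chromosome lengths match, with the start of every protein-coding transcript as a start and the classes promoter (within 1 kb), exon, intron and intergenic by midpoint. Shares were compared by two-sided Fisher's exact tests, adjusted by the Benjamini-Hochberg method over 4 classes or 10 motifs, with a call at an adjusted p under 0.05, and by the Mantel-Haenszel test within 10 strata. The tests treat peaks as independent, which neighbouring and repeated peaks are not, and do not measure variation between cultures. Shares have exact Clopper-Pearson intervals at 95%. Scripts were tested on simulated data. Of 294 list symbols, 287 could be measured.

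Genes were named by a rule: the nearest start of the 10 widest members, of the 10 with the highest enrichment and of the 5 with the most replicate 1 peaks, up to 3 genes per list by width, and the 5 peaks on either side of the threshold. Other genes were named after their values were seen. Fits used SciPy 1.17.1, NumPy 2.4.6 and statsmodels 0.14.6 in Python 3.11.15, sequences pysam 0.24.0, tables pandas 2.3.3 and plots matplotlib 3.10.9. The mm10 lists were not used here, since no conversion between builds was made.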

Additional observations from a re-analysis of the deposited data

How the results depend on the processing

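No paired analysis was possible because the study has 1 group. Values are odds ratios of wide over narrower peaks. The peak lists limit these results: replicate 2 has 16 peaks of 1300 bp or more, so the fit without replicate 1 rests on those. Of 156 values from alternatives, 96 kept direction and call or moved little. Where no reason is given the cause was not tested. The NANOG core lost its call with 400 bp to each side (0.857), at replicate 2 midpoints (0.858), there within strata of enrichment (0.816) there without repeated peaks (0.873), and without replicate 1 (0.531, from 16 wide peaks). Calls appeared for intergenic sequence at 1200 bp (1.20) and without repeated peaks (1.24), the OCT octamer at 1200 bp (0.661) and, both without replicate 2, the OCT octamer (0.615) and intergenic sequence (1.19), and the SOX site at 1500 bp (0.533), within strata of enrichment (0.705) and with 50 bp to each side (0.441). With replicates left out in turn, ranges were 0.531 to 0.675 for the NANOG core, 0.615 to 1.99 for the OCT octamer, 0.838 to 1.60 for the ESRRB site, 0.852 to 3.43 for the STAT site, 0.790 to 5.07 for the ETS site, 0.439 to 6.99 for the NRF1 core, 0.561 to 0.809 for the KLF site, 0.610 to 0.941 for the TCF site, 1.09 to 4.14 for the GC box, 0.841 to 3.24 for exons and 1.19 to 1.27 for intergenic sequence; where a count was 0, 0.5 was added.

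Directions changed as follows, without a call except for the ESRRB site with 400 bp (Fisher's exact test, adjusted p = 0.0172) and at replicate 2 midpoints. Promoters had 1.47 at 1500 bp, 1.04 within strata of enrichment and 1.03 with starts within 2 kb. At 1200 bp, the ESRRB site had 1.01, the ETS site 1.02 and the NRF1 core 1.02. At 1500 bp, the STAT site had 0.968 and the ETS site 1.09. The ETS site had 1.07 within strata of enrichment, 1.06 within strata of GC and 1.07 without repeated peaks. With 50 bp to each side, the STAT site had 0.618, the ETS site 1.10 and the NRF1 core 1.28. With 400 bp, the OCT octamer had 1.13, the SOX site 1.18, the ESRRB site 1.58, the KLF site 1.17, the TCF site 1.15, the ETS site 1.29 and the GC box 0.949. At replicate 2 midpoints, the SOX site had 1.01, the ESRRB site 2.02, the KLF site 1.12, the TCF site 1.16, the ETS site 1.23 and the GC box 0.684. There within strata of enrichment, they were 2.08 for ESRRB, 1.20 for KLF, 1.17 for TCF, 1.38 for ETS and 0.712 for the GC box. There without repeated peaks, they were 1.06 for SOX, 2.10 for ESRRB, 1.10 for KLF, 1.12 for TCF, 1.29 for ETS and 0.729 for the GC box. Wide peaks with 2 or more replicate 2 peaks numbered 38 at a q-value of at most 0.05, and list genes with a wide peak 32 within 50 kb and 3 within 1 kb, beside 62 and 20. The replicate 2 midpoints and repeated-peak settings were chosen after seeing the data.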
